A study of Mus musculus with 9 samples.

Results

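The NRF2 antioxidant response was followed through 10 genes, picked by symbol: the transcription factor gene Nfe2l2, its inhibitor Keap1, the target genes Nqo1, Gclc, Gclm, Txnrd1, Slc7a11 and Srxn1, and the glutathione peroxidase genes Gpx3 and Gpx4. They are 10 of 16367 genes in the table of sorted mouse retinal cells and 10 of 17035 genes in the table of primary cultures, which are labelled as Müller glia, the main glia of the retina. All 10 had a mean of at least 10 normalised reads in the sorted libraries and were among the 14403 genes tested. The study had 9 libraries in 3 groups of 3, all from mice labelled wild type (WT). In the sham group, the eye received a corneal incision and no oil. In the group labelled OHT, for ocular hypertension, both eyes were injected in the anterior chamber with 1.2 µL of silicone oil, which raises their pressure. For each sham and OHT library, 4 neural retinas were pooled and dissociated, and cells carrying the glutamate transporter GLAST, which astrocytes share with Müller glia, were taken on magnetic beads. The primary cultures came from retinas of C57BL/6J pups aged 8 to 10 days, were grown in serum and passaged, and were not treated. The sources used here give neither the age at surgery nor the time after it. No label says that the cultures or pools of a group were separate preparations, so p-values measure only the spread between these libraries, which may be technical.

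NRF2, the protein of Nfe2l2, turns on genes for handling electrophiles and oxidants. KEAP1 marks it for destruction in unstressed cells, and oxidants or electrophiles that modify KEAP1 cysteines let NRF2 build up, so that the activity of the factor is set largely on the protein and not on its mRNA. Its targets supply glutathione: SLC7A11 brings in cystine, GCLC and GCLM form the enzyme of the rate-limiting step, and glutathione peroxidases spend the product. In the retina Müller glia are known as a main store of glutathione, while activated microglia are a source of oxidants.

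NRF2 with a small MAF partner binds the antioxidant response element, whose core is TGACNNNGC. This core was looked for on both strands in RefSeq promoter windows (build GRCm38.p6, 250 bases before to 50 after each start). A window was listed for 9 of the 10 genes, all but Gclc. Of these 9, 4 held the core in at least 1 window, against 14.0% of 27025 gene symbols. The matches are printed below in capitals with up to 10 bases on each side, read along the strand of the match, because they show which members carry the core close to a start site. They are letter matches and no measure of binding, and their absence from the other windows (Nqo1, Slc7a11, Keap1, Gpx3 and Gpx4) says only that these 300 bases lack the letters. Distances are to the first base of the match along the gene. For Gclm, Txnrd1 and Srxn1 this is the last base printed in capitals.
Nfe2l2 (chr2:75704885-75704913, minus strand, match beginning at -240 from the start): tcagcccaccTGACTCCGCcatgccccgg
Gclm (chr3:122245413-122245441, minus strand, -134): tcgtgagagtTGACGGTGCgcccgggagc
Txnrd1 (chr10:82859104-82859132, minus strand, -92, in 1 of its 3 windows): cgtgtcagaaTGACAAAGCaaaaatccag
Srxn1 (chr2:152105542-152105570, minus strand, 29 bases after the start): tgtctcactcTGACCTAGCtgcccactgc

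Depth was 37.8 to 44.5 M reads (M for mega) per sham library, 47.1 to 53.6 M reads per OHT library and 66.3 to 76.7 M reads per culture. Marker genes showed what the libraries held, as a share of each library's total. The 14 Müller glia markers made up 0.507% to 1.32% in sham and 0.292% to 0.624% in OHT. The 14 microglia and macrophage markers made up 3.74% to 5.51% in sham and 6.10% to 7.90% in OHT, without overlap. With the deposited factors, 11 of the 14 had a higher mean log2 value in OHT and 3 a lower one. As ppm of the library's reads, Cx3cr1, P2ry12, Tmem119 and Csf1r had lower means in OHT. Tmem119 was at 2450, 1942 and 844 ppm in sham and at 870, 1589 and 662 ppm in OHT. The 14 rod markers were at 0.292%, 2.74% and 2.22% in sham replicates 1 to 3 and at 0.101% to 0.368% in OHT. None of the markers of these 3 lists was at 0 in any sorted library. In the cultures the Müller glia list was at 0.372% to 0.440%, but mainly through Vim (2301 to 3319 ppm of the library's reads). The defining genes Rlbp1 (1.60 to 2.84 ppm) and Kcnj10 (0.156 to 0.542 ppm) were near 0 there, while the mural cell and fibroblast list stood at 1.62% to 1.92%, led by Acta2 and Col1a1. Other genes of the Müller glia list were not near 0: Prdx6 (650 to 747 ppm), Dkk3 (162 to 269 ppm) and Clu (124 to 262 ppm). Of these, Dkk3 and Clu were below every sorted library. In the mural cell and fibroblast list, Rgs5 (2.58 to 3.44 ppm) and Lum (0.169 to 0.370 ppm) were low. The low Rlbp1 and Kcnj10 go against the label of Müller glia. The lists do not settle the cell type, and the libraries are called primary cultures here. In such bulk libraries, fewer cells of a type and less RNA per cell cannot be told apart.

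No gene of the sorted table passed the threshold between OHT and sham: limma called 0 of 14403 genes (0%) at an adjusted p under 0.05, and thus 0 of the 10 members. At an unadjusted p under 0.05 there was 1 member with a higher mean in OHT, Gpx3, where 5.37% of all genes were in that class, and 1 with a lower mean, Nqo1, against 6.3% of all genes. All OHT libraries lay above all sham libraries for 1 member, Nfe2l2 (9.26% of all genes), and below them for 1 member, Nqo1 (9.18% of all genes). These shares of members are close to the background. The median log2 difference, OHT minus sham, was 0.07 over the members and -0.12 over all genes tested. Values per library are normalised read counts and log2 differences are of log2(value + 1).

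**Figure D1:**
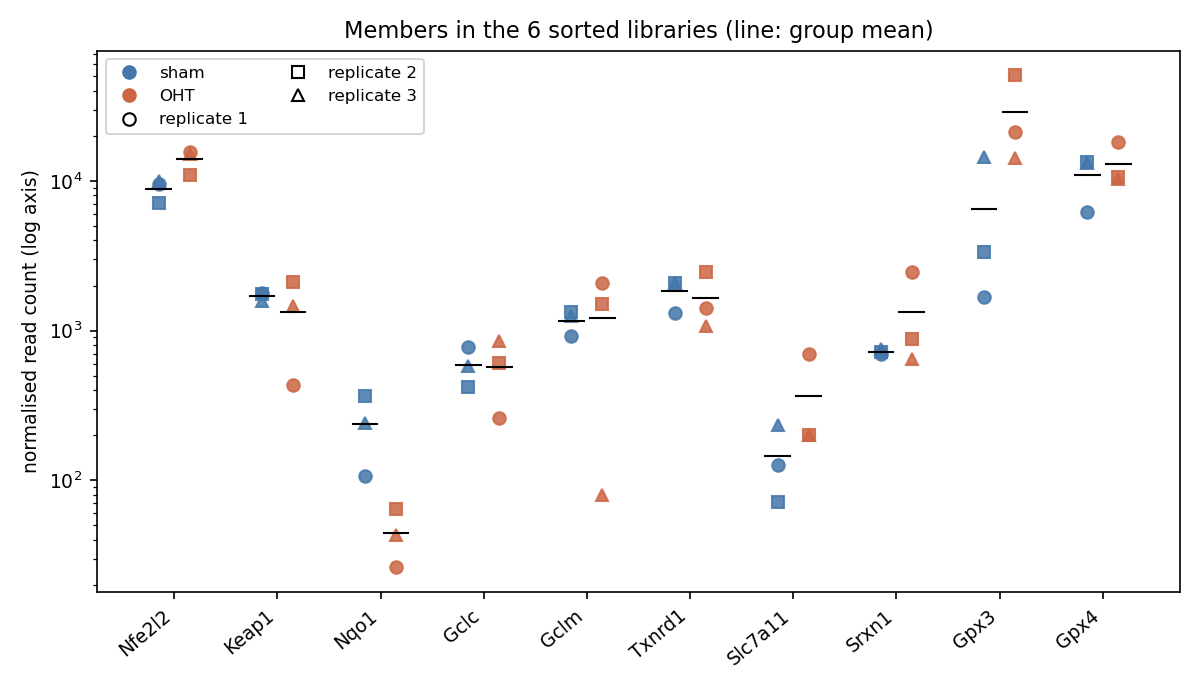
Normalised read counts (log axis) of the 10 genes in each sorted library, with sham in blue and OHT in red, a marker shape for each replicate and a line at each group mean. Nqo1 is lower in every OHT library (26.3 to 64.2) than in any sham library (106 to 366), Nfe2l2 is higher in every OHT library, and the other 8 genes overlap between the groups.

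Nfe2l2 was abundant in every sorted library. It stood at 9475, 7069 and 10062 in sham and at 15687, 10999 and 15228 in OHT. The groups did not overlap, but OHT replicate 2 was close to sham replicate 3. The means were 8869 ± 1586 and 13971 ± 2584 (SD, n = 3), which is 0.65 on the log2 scale (SE 0.32, adjusted p = 0.450 in limma). As ppm of the library total the groups did overlap: OHT replicate 1 was at 238 ppm, between the 180 and 243 ppm of the lowest and highest sham libraries. The groups overlapped after quantile normalization too, with a log2 difference of 0.29.

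Keap1, which encodes the sensor that holds NRF2 in check, was even among the sham libraries, at 1783, 1769 and 1586. The OHT libraries spread more, at 430, 2116 and 1456. OHT replicate 1 was 3.39-fold below the next lowest library, while OHT replicate 2 was the highest of all 6. On the log2 scale OHT minus sham was -0.64 (SE 0.55, limma gave an adjusted p of 0.634), and 0.037 without OHT replicate 1. GENCODE M21 has the antisense gene Gm16754 over part of Keap1, and reads of the 2 cannot be told apart where strand was not used in counting.

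Nqo1 encodes the quinone reductase that is often read as the marker target of NRF2. Its values were 106, 366 and 242 in sham and 26.3, 64.2 and 43.3 in OHT, so the groups did not overlap. The means were 238 ± 130 and 44.6 ± 19.0 (SD, n = 3). The difference on the log2 scale was -2.31 (SE 0.92, adjusted p = 0.385 by limma), the lowest of the members. The OHT values rest on 19, 78 and 54 reads. For the lowest, OHT replicate 1, this is 0.399 ppm with an exact (Clopper-Pearson) 95% interval of 0.240 to 0.623 ppm, which covers counting error only. The lowest sham library, replicate 1, had 2.72 ppm (2.22 to 3.30 ppm). The gap was present with deposited factors, ppm, TMM factors and quantile normalization. Leaving out 1 library cannot close such a gap, so it is no test of it. Sham replicate 1 was also the sham library with the lowest rod share, the lowest Müller glia share (0.507%) and the lowest astrocyte share (0.00155%). The astrocyte share was 0.0657% and 0.125% in sham replicates 2 and 3, and 0.00566% to 0.0100% in OHT. The part of these marker shares in the Nqo1 difference was not tested.

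Txnrd1, the cytosolic thioredoxin reductase and a selenoprotein, did not separate the groups. Its counts were 1320, 2080 and 2082 in sham and 1411, 2451 and 1077 in OHT, where OHT held both the highest and the lowest library. OHT minus sham came to -0.21 on the log2 scale (SE 0.43, adjusted p = 0.849 in limma). GENCODE M21 places Eid3 within Txnrd1 on the same strand.

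Srxn1 encodes sulfiredoxin, which restores overoxidised peroxiredoxins. It varied least of the members in sham, at 698, 720 and 750, a 1.07-fold range. In OHT it was at 2459, 878 and 647. OHT replicate 1 alone stood apart, 2.80-fold above the next library, and OHT replicate 3 was below every sham library. On the log2 scale OHT minus sham was 0.63 (SE 0.54, limma gave an adjusted p of 0.628), and 0.060 without OHT replicate 1.

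Cystine import and glutathione synthesis gave no common direction. Slc7a11, the cystine-glutamate exchanger subunit, was scarce. Its counts were 127, 71.9 and 233 in sham and 695, 202 and 202 in OHT. OHT replicates 2 and 3 fell within the sham range and OHT replicate 1 was 2.98-fold above the next library. The difference on the log2 scale was 1.24 (SE 0.81, adjusted p = 0.544 by limma) and 0.64 without OHT replicate 1. The lowest value, in sham replicate 2, rests on 78 reads (1.83 ppm, exact 95% interval 1.45 to 2.28 ppm).

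Gclc, the catalytic subunit of glutamate-cysteine ligase, was at 774, 420 and 577 in sham and at 261, 604 and 858 in OHT. The sham values lay inside the OHT range. OHT minus sham came to -0.16 on the log2 scale (SE 0.59, adjusted p = 0.918 in limma). Its sign changed on leaving out sham replicate 1 or OHT replicate 1, and with quantile normalization (0.22).

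Gclm, the modifier subunit that raises the efficiency of the catalytic one, was at 917, 1327 and 1243 in sham and at 2064, 1511 and 80.1 in OHT. With the deposited factors OHT replicates 1 and 2 were above every sham library. In ppm OHT replicate 1 (31.4 ppm) was below sham replicate 2 (33.7 ppm). By the deposited values OHT replicate 3 was 11.4-fold below the next lowest library, with 100 reads (2.12 ppm, exact 95% interval 1.73 to 2.58 ppm). Gclm thus ranged 25.8-fold within OHT, the widest spread of the members in that group. On the log2 scale OHT minus sham was -0.86 (SE 0.98, limma gave an adjusted p of 0.715), and 0.62 without that library (limma adjusted p = 0.471). A deficit of 10-fold or more in OHT replicate 3 alone was present in 120 of 11532 genes with a mean of at least 100, or 1.04%. In GENCODE M21 the pseudogene Gm6061 and the transcript Gm17494 lie over Gclm, and how shared reads were counted is not known here.

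The glutathione peroxidases differed from each other. Gpx3, the secreted enzyme, was at 1664, 3370 and 14395 in sham and at 21187, 50743 and 14236 in OHT. Sham replicate 3 was just above OHT replicate 3, and the other sham libraries were well below every OHT library. In ppm sham replicate 3 (338 ppm) was above OHT replicate 1 (322 ppm) and below OHT replicate 3 (377 ppm). The means were 6476 ± 6910 and 28722 ± 19385 (SD, n = 3), apart by 2.52 on the log2 scale (SE 0.69, adjusted p = 0.332 in limma), the highest of the members. Without sham replicate 3 it was 3.39 and passed the threshold (limma adjusted p = 0.0427), and it was 1.83 without sham replicate 1. Over all alternatives the adjusted p for Gpx3 ran from 0.0427 to 0.906.

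Gpx4, the selenoenzyme that reduces lipid peroxides in membranes and guards against ferroptosis, was at 6219, 13282 and 13259 in sham and at 18242, 10603 and 10336 in OHT. All OHT libraries were above sham replicate 1 and only OHT replicate 1 was above the other sham libraries. In ppm OHT replicate 1 (277 ppm) was below sham replicates 2 and 3 (338 and 312 ppm). The difference on the log2 scale was 0.29 (SE 0.39, adjusted p = 0.761 by limma), -0.075 without sham replicate 1 and -0.089 with quantile normalization. Gpx4 has a transcribed processed pseudogene, Gpx4-ps2, so its counts are uncertain to the extent that reads were shared.

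**Figure D2:**
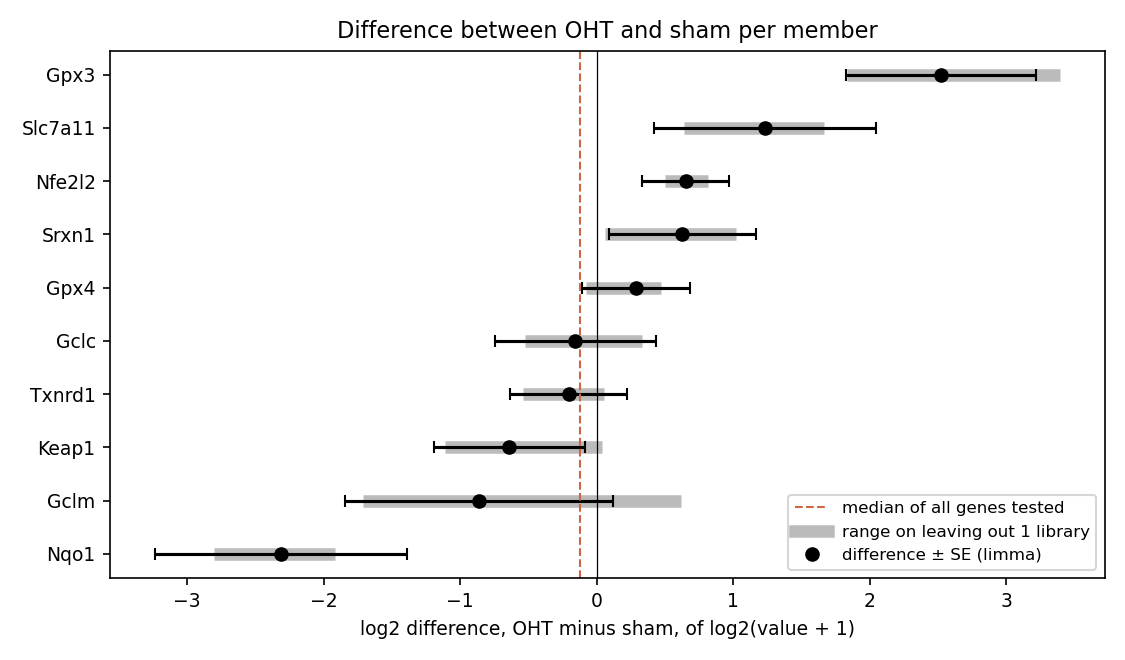
Log2 difference of OHT minus sham for each gene (point, limma) with its standard error (whisker) and the range of values on leaving out 1 library at a time (grey bar); the dashed line is the median of all genes tested, -0.12. Gpx3 (2.52) and Nqo1 (-2.31) lie farthest from 0, and the grey bars of Keap1, Gclc, Gclm, Txnrd1 and Gpx4 cross 0.

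OHT replicate 1 set many of these extremes. It was the highest sorted library for Nfe2l2, Gclm, Slc7a11, Srxn1 and Gpx4 and the lowest for Keap1, Nqo1 and Gclc, which makes 8 of 10 members with the deposited factors. The same library was the highest or the lowest for 63.3% of all genes tested. In ppm it was the highest for 2 members, Slc7a11 and Srxn1, and the lowest for 4, Keap1, Nqo1, Gclc and Txnrd1, against 57.2% of all genes. Replicates also differed more in OHT than in sham in both sets. The median SD between replicates on the log2 scale was 0.41 in sham and 0.91 in OHT over the members, and 0.44 and 0.90 over all genes tested.

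**Figure D3:**
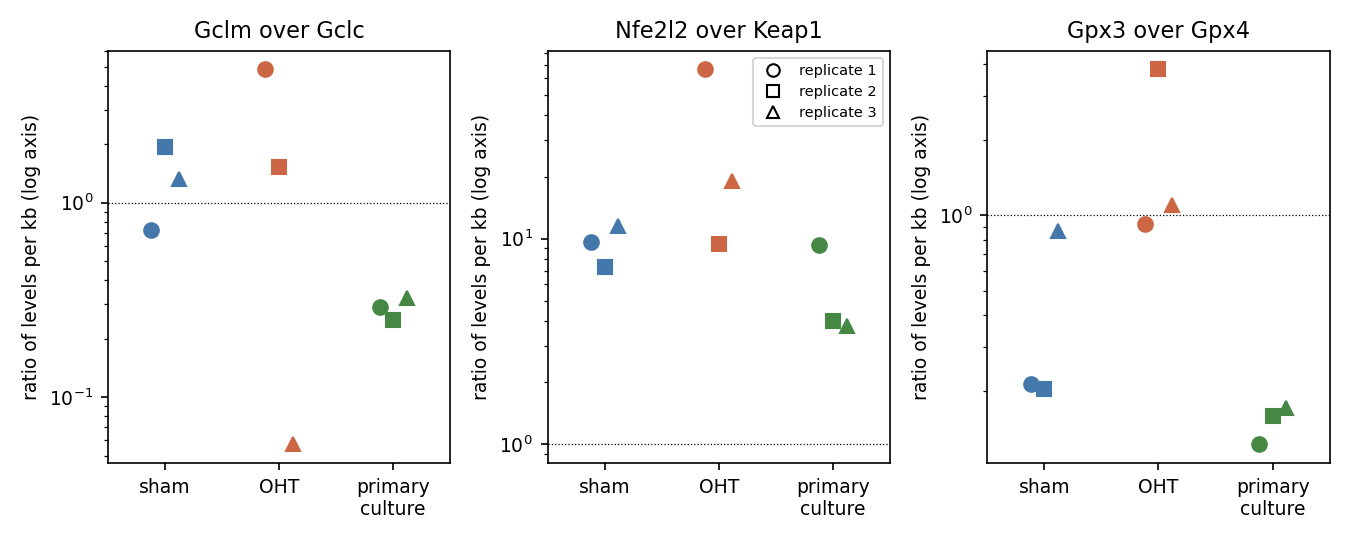
Ratios between pairs of members within a library (log axis), from levels per kb of exon, with 1 point per library (sham blue, OHT red, cultures green) and a dotted line at a ratio of 1. The Gclm to Gclc ratio runs from 0.0572 to 4.84 within OHT, and the cultures lie between 0.251 and 0.324.

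Ratios within a library do not depend on its scaling and are given per kb of exon. They do depend on the lengths used, which shift all ratios of a pair by the same factor. Gclm has 5589 bp of exon but a median transcript of 3295.5 bp, which would raise its ratios to Gclc. Whether a ratio lies above or below 1 is therefore uncertain. Gclm stood at 0.726, 1.94 and 1.32 times Gclc in sham and at 4.84, 1.53 and 0.0572 times in OHT, so the balance of the ligase subunits was widest apart between the OHT libraries themselves. Nfe2l2 stood at 9.66, 7.26 and 11.5 times Keap1 in sham and at 66.4, 9.45 and 19.0 times in OHT. OHT replicate 2 was within the sham range. Gpx3 stood at 0.214, 0.203 and 0.866 times Gpx4 in sham and at 0.927, 3.82 and 1.10 times in OHT. This last ratio was higher in each OHT library than in any sham library, although neither gene separated the groups alone. The gap between sham replicate 3 and OHT replicate 1 was small. No background share of separated ratios was computed over other gene pairs, so this gap is a description only.

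Other genes of the pathway were taken from 7 lists, which hold 123 genes besides the members. Of these, 122 were tested and 0 passed an adjusted p under 0.05 in limma. At an unadjusted p under 0.05, 17 (13.9%) had a higher and 8 (6.56%) a lower mean log2 value in OHT. All OHT libraries were above sham for 24 (19.7%) and below for 10 (8.20%). In ppm these counts were 15 and 15 (12.3% each), against 5.44% and 11.4% of all genes. With the deposited factors the corresponding shares of all genes are those given for the members, and the median log2 difference of the 122 was 0.18.

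The list of 29 other NRF2 targets had a median of 0.39, with 7 genes higher and 1 lower at an unadjusted p under 0.05. Ftl1, the ferritin light chain, was at 205967, 108875 and 240391 in sham and at 699758, 340151 and 554748 in OHT (1.54 on the log2 scale, SE 0.50, adjusted p = 0.339 in limma). Blvrb, a biliverdin reductase, had means of 1853 and 5068 (1.33), and the peroxiredoxin Prdx1 had means of 10545 and 24708 (1.13). The gene lower at that p, Me1, encodes a malic enzyme that makes NADPH. It was at 83.7, 719 and 1265 in sham and at 49.7, 70.8 and 32.1 in OHT (log2 difference -3.11). Sham replicate 1 was near the OHT values, as it was for Nqo1.

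The 10 partners and repressors of NRF2 had a median of 0.09 and no gene at an unadjusted p under 0.05. Hmox1, the haem oxygenase gene shared by NRF2 and its competitor BACH1, was chosen after the values were seen, as were Slc3a2, Gss and Gsr below. Hmox1 was at 8972, 7377 and 9077 in sham and at 13814, 10956 and 21190 in OHT. With the deposited factors the groups did not overlap, and were 0.81 apart on the log2 scale (SE 0.34, adjusted p = 0.400 in limma). In ppm they overlapped, with OHT replicate 1 at 210 ppm and sham replicate 1 at 230 ppm.

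Of 34 genes tested for glutathione synthesis, recycling and use, 3 were higher and 4 lower at an unadjusted p under 0.05, and the median was 0.04. Gsto1, an omega-class glutathione transferase, had means of 1952 ± 312 and 4627 ± 1150 (log2 difference 1.23), and the cytosolic peroxidase Gpx1 had means of 21810 ± 6561 and 47178 ± 19004 (1.09). Anpep, an aminopeptidase of the cell surface named after its values were seen, was the third of the higher ones. It was at 19.6, 9.22 and 1444 in sham and at 1460, 2195 and 408 in OHT, so the groups overlapped (4.02 on the log2 scale, adjusted p = 0.370 in limma). Among the lower genes, Slc1a1, a neuronal glutamate and cysteine transporter, was at 232, 287 and 197 in sham and at 12.4, 32.9 and 0 in OHT, where a count of 0 allows up to 3 reads. Ggt7 had means of 285 and 20.6, and Cbs, the cystathionine synthase on the route from homocysteine to cysteine, of 526 and 29.9. Cbs was at 61.0 in sham replicate 1. The adjusted p in limma was 0.351 for Gpx1 and 0.332 for Gsto1, Slc1a1, Ggt7 and Cbs.

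The partners of the members in cystine import, glutathione synthesis and recycling overlapped between the groups. Slc3a2, the heavy chain that carries SLC7A11 to the membrane, was at 23306, 22635 and 23896 in sham and at 32377, 27348 and 23880 in OHT. Gss, glutathione synthetase, had means of 272 ± 8.80 and 318 ± 103. Gsr, glutathione reductase, was at 753, 1094 and 1364 in sham and at 3333, 1539 and 261 in OHT, with OHT replicate 3 lowest, as for Gclm. The limma adjusted p was 0.736, 0.910 and 0.969 for these genes.

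The 18 thioredoxin and peroxiredoxin genes had a median of 0.42, with 5 higher and 1 lower at an unadjusted p under 0.05. Prdx5 had means of 10722 and 23081, and the methionine sulfoxide reductase Msra had means of 570 ± 178 and 1321 ± 21.6. Nxn, nucleoredoxin, had means of 283 and 66.5. Of the 5 superoxide dismutase and catalase genes, 1 was higher and 1 lower at that p, and Sod1 had means of 609 and 1794 (log2 difference 1.40, limma adjusted p = 0.365), and the median was 0.40.

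The 22 selenoprotein genes had a median of 0.12, with 4 higher and 1 lower at that p. Selenoh had means of 923 and 2232, and Selenop, the selenium carrier, of 58833 and 106834. Eefsec, the elongation factor that brings selenocysteine to the ribosome, had means of 1522 and 719. The 17 ferroptosis genes had a median of 0.16, with 3 higher, Ftl1, Fth1 and Vdac3, and none lower. Ftl1 and Fth1 are also on the list of other NRF2 targets. Microglia and macrophage markers had a higher share in OHT, as given above, and Müller glia markers had a lower mean log2 value in OHT in 13 of 14 tested genes, with a median of -0.81. Rod, astrocyte, endothelial, mural cell and neuron markers were lower in 14 of 14, 5 of 5, 8 of 8, 5 of 6 and 9 of 11. The part of these shares in the list values was not tested.

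**Figure D4:**
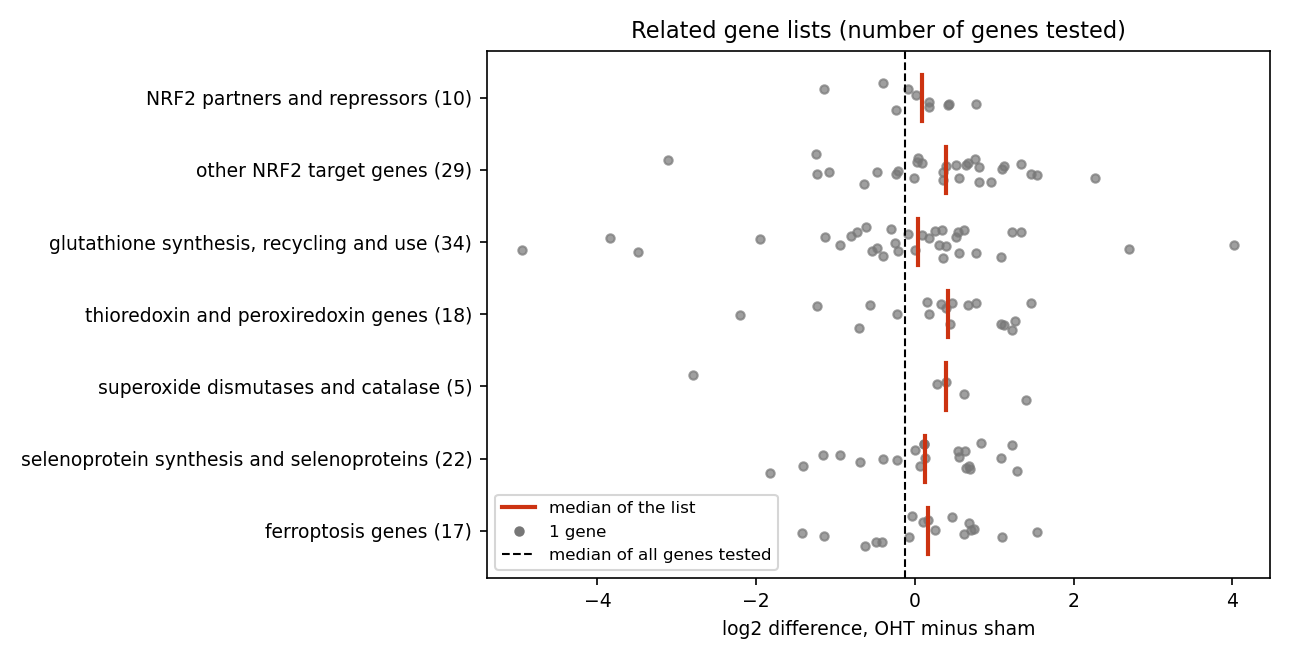
Log2 difference of OHT minus sham for each tested gene of the 7 related lists (grey points, with the number of genes in brackets), the median of each list (red bar) and the median of all genes tested (dashed line, -0.12). List medians run from 0.04 to 0.42, and single genes reach -4.94 (Slc1a1).

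Likeness between members and these 122 genes was measured over the 6 sorted libraries as the root mean square distance between log2 values centred on each gene's mean. For Nfe2l2 the nearest gene was Vdac2, a mitochondrial channel, with a distance of 0.10, where Nfe2l2 itself deviates from its mean by 0.40. Srxn1 was nearest to Prdx3, the mitochondrial peroxiredoxin (0.14), and Gpx4 to the glutathione transferase Gstm1 (0.16). Gclm was nearest to the glutaredoxin Glrx5 (0.24), which was also lowest in OHT replicate 3, at 168 against 2028 or more in the others. Gpx3 was nearest to Mgst1, at 0.94 where Gpx3 itself deviates by 1.65, and Gclc to Mgst3, at 0.42 where Gclc deviates by 0.57. The remaining pairs were Txnrd1 with Maff (0.25), Slc7a11 with Txn1 (0.36), Keap1 with Selenoi (0.39) and Nqo1 with Nxn (0.49). With 6 libraries and this many candidates, these are descriptions of shared pattern only.

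In the primary cultures Nqo1 was the member that stood apart. It was at 302, 262 and 240 ppm there, against 0.399 to 9.31 ppm over the 6 sorted libraries, and the lowest culture was 25.8-fold above the highest sorted library. The ratio of group means was 45.3 over sham and 268 over OHT. The tables were normalised separately, so levels across them are in ppm of each library and carry no test.

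Txnrd1 and Gpx4 were also above all 6 sorted libraries in every culture. Txnrd1 was at 141, 154 and 154 ppm against 21.4 to 55.6 ppm, and Gpx4 at 605, 646 and 562 ppm against 159 to 338 ppm. Nfe2l2 was the member below all 6 sorted libraries in every culture, at 172, 125 and 138 ppm against 180 to 403 ppm, with primary replicate 1 close to the lowest sorted library. The factor's mRNA was thus lowest where Nqo1 and Txnrd1 were highest, while its targets Gclc, Gclm, Slc7a11 and Srxn1 overlapped the sorted libraries. For Gclc, Gclm and Srxn1 the overlap came from 1 library each. Gclc and Srxn1 in every culture were above all sorted libraries except OHT replicate 3 (22.7 ppm) and OHT replicate 1 (37.4 ppm), respectively. Gclm in every culture was below all except OHT replicate 3 (2.12 ppm). A link between the factor and its targets was not tested.

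The other 6 members overlapped the sorted libraries. Gclm had a mean of 11.6 ± 0.997 ppm in culture against 28.8 ± 5.14 in sham and 22.6 ± 17.8 in OHT (SD, n = 3), below 5 of the 6 sorted libraries. Gclc had 24.8 ± 4.20 ppm against 14.7 ± 4.67 and 13.5 ± 9.38. Slc7a11 had 7.01 ± 2.28 ppm against 3.52 ± 1.84 and 6.83 ± 3.26, and Srxn1 had 23.2 ± 1.02 ppm against 17.9 ± 0.347 and 24.8 ± 11.0. For both, OHT replicate 1 was the highest OHT library (10.6 and 37.4 ppm). Srxn1 in every culture was above the other 5 of the 6 sorted libraries. Keap1 had 52.3 ± 17.1 ppm against 42.6 ± 4.64 and 31.0 ± 21.7, and Gpx3 had 114 ± 18.6 ppm against 156 ± 160 and 616 ± 463. Over sham, the direction for Keap1 turned with another denominator, and that for Gpx3 turned from a log2 ratio of -0.45 to 0.83 without sham replicate 3.

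**Figure D5:**
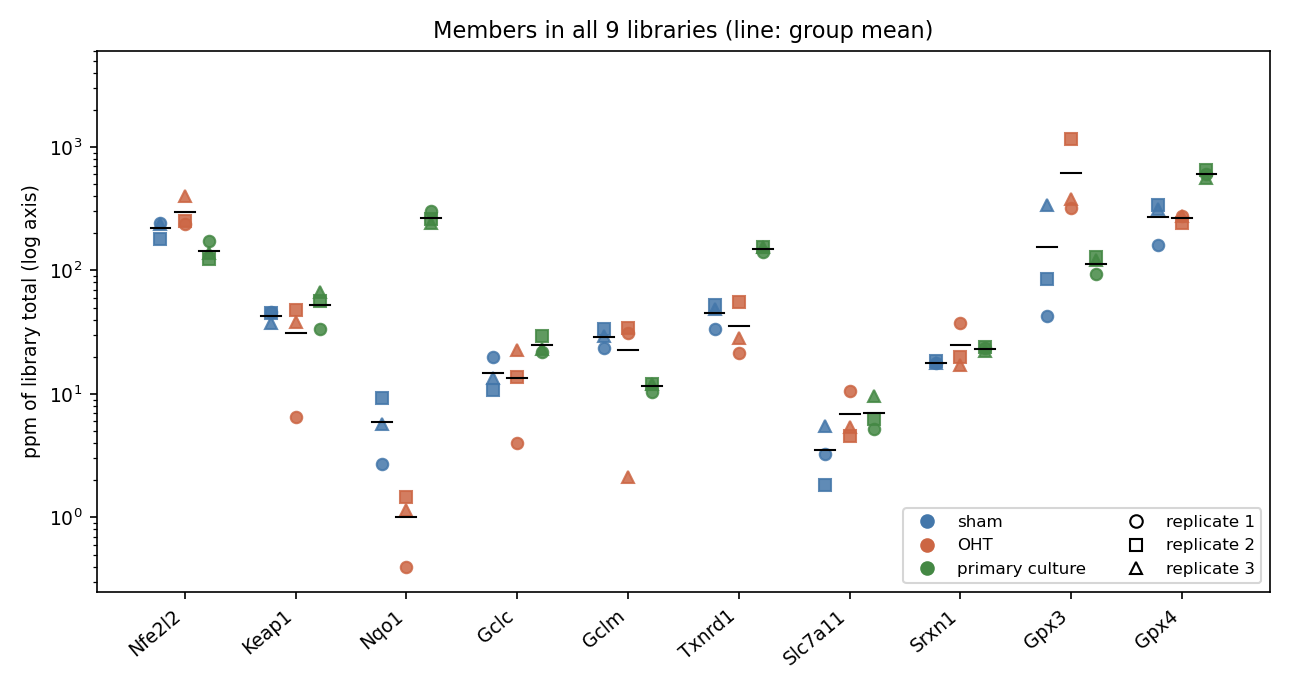
Level of the 10 genes in all 9 libraries, in ppm of each library's reads (log axis), with sham in blue, OHT in red, cultures in green and a line at each group mean. The cultures sit at 240 to 302 ppm for Nqo1, above the 9.31 ppm of the highest sorted library, and at 125 to 172 ppm for Nfe2l2, below all sorted libraries.

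Hmox1 did not share the Nqo1 pattern, with 177 to 241 ppm in culture and 188 to 561 ppm in the sorted libraries. Slc3a2 was lower in every culture (156 to 248 ppm) than in any sorted library (492 to 632 ppm), and Gss was higher in every culture (50.9 to 63.4 ppm against 6.01 to 6.99 ppm). Ftl1 had a culture mean of 10220 ppm, against 4563 ppm in sham and 11011 ppm in OHT. Fth1, the ferritin heavy chain, had 1063 ppm in culture against 4753 and 8320 ppm, and Prdx1 had 1062 ppm against 260 and 481 ppm. Microglia and macrophage markers made up 0.0137% to 0.0226% of the cultures, far below the sorted libraries. The part of cell makeup in the differences between cultures and sorted cells was not tested.

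Levels can be compared between genes only per length, and were set per kb of exon. In sham the order was led by Gpx4 (212 ± 75.8 ppm per kb, SD, n = 3), Gpx3 (97.6 ± 100) and Nfe2l2 (88.7 ± 14.0), whose ranges overlapped from 1 gene to the next. Well below came Txnrd1 (11.1 ± 2.47), Keap1 (9.48 ± 1.03), Srxn1 (6.38 ± 0.123), Gclm (5.15 ± 0.920), Gclc (4.29 ± 1.36) and Nqo1 (3.80 ± 2.12), with ranges apart between Keap1 and Srxn1 and between Srxn1 and Gclm. Slc7a11 was last and apart, at 0.358 ± 0.187. In OHT, Gpx3 led (387 ± 291), overlapping Gpx4 (207 ± 16.0), and Nfe2l2 followed apart from both (120 ± 37.2). Srxn1, Txnrd1, Keap1, Gclm and Gclc came next, between 8.82 and 3.93, with each range overlapping the next. Slc7a11 (0.693 ± 0.331) and Nqo1 (0.644 ± 0.350) were lowest and overlapped.

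In culture Gpx4 led (475 ± 33.1 ppm per kb), and Nqo1 was the second (172 ± 20.2), apart from its neighbours. Gpx3 (71.3 ± 11.7) and Nfe2l2 (58.4 ± 9.78) overlapped, and Txnrd1 followed apart (36.7 ± 1.78). Keap1 (11.6 ± 3.79), Srxn1 (8.26 ± 0.363) and Gclc (7.25 ± 1.23) overlapped from 1 to the next, and Gclm (2.07 ± 0.178) and Slc7a11 (0.712 ± 0.232) were each apart. Nqo1 thus moved from the ninth place in sham and the last in OHT to the second in culture. With the median transcript length, an alternative added once the data had been seen, these places of Nqo1 stayed, while neighbours among Txnrd1, Keap1, Srxn1 and Gclm exchanged places in sham and among Srxn1, Txnrd1 and Keap1 in OHT.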

How the data were processed

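Per the submitters' processing notes, the tools included bcl2fastq 2.20, Trim Galore 0.6.6, FastQC 0.11.9 and STAR 2.7.1a, with build mm39. The counting program, the annotation and how the values were normalised: not given in the sources used here. The deposited signal is 1 normalised read count per gene and library. Per the deposited values it is a count divided by 1 factor per library, not by length: for the sorted cells, 100% of values were whole reads after division by the column's smallest step (tolerance 0.05).

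OHT was compared with sham by limma 3.58.1 (eBayes with trend, R 4.3.3) on log2(value + 1) in genes with a mean of at least 10, with Benjamini-Hochberg adjustment over all 14403 genes and a threshold of 0.05. edgeR 4.0.16 and DESeq2 1.42.0 were run on recovered reads. The limma and edgeR fits were tested on simulated data, with planted changes larger than any member's difference in the main fit. The DESeq2 fit was not tested in this way. Lengths are unions of protein-coding exons in GENCODE M21, a build other than the authors'. Groups came from the labels. The members, gene lists and tests were chosen with earlier results of these data known. Named were all members, per list up to 3 genes per direction with the smallest p among those at an unadjusted p under 0.05 without overlap of the groups, of the 3 per list with the highest culture ppm those of the NRF2 target list, and the nearest gene of each member. Prdx6 is on the Müller glia and peroxiredoxin lists. Python 3.11.15, numpy 2.4.6, pandas 2.3.3 and matplotlib 3.10.9 were used.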

Additional observations from a re-analysis of the deposited data

How the results depend on the processing

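The count of 0 genes called became 2 with the replicate block, 250 with DESeq2 (54 higher and 196 lower, 510 genes without an adjusted p) and 0 to 17 on leaving out 1 library (12 without sham replicate 1 and 17 without sham replicate 3). edgeR called 0, with 1575 genes at an unadjusted p under 0.05 against 1680 in limma. Leaving out 1 library moved that limma count to between 544 (without sham replicate 2) and 2508 (without OHT replicate 2), with 1055 without sham replicate 3, and the background shares at that p rest on it. No member passed with the block, edgeR or DESeq2. Same-numbered libraries (r across genes of 0.08, -0.02 and -0.05) deviated together no more than differently numbered ones (-0.07 to 0.10). These values show no pairing by number, but with 3 libraries per group they cannot exclude it. The 2 members at an unadjusted p under 0.05 became 1 with quantile normalization and 1 to 3 on leaving out 1 library. The 2 members without overlap became 1 in ppm (an alternative added once the data had been seen) and 2 to 5 on leaving out 1 library: 4 without sham replicate 3 and 5 without OHT replicate 3. They were 3 with quantile normalization (Nqo1, Slc7a11 and Srxn1) and 3 with TMM factors (Nfe2l2, Nqo1 and Gpx3). Leaving out a library can only keep or raise this count. The share of all genes was not computed with a library left out, quantile normalization or TMM factors. These counts thus have no background and are no sign that the members separate better. The log2 difference of OHT minus sham kept its sign in all 16 alternatives for Nfe2l2, Nqo1, Slc7a11, Srxn1 and Gpx3. It turned with quantile normalization for Gclc (0.22) and Gpx4 (-0.089), with DESeq2 for Gclm (0.068), without sham replicate 1 for Gclc (0.06) and Gpx4 (-0.075), without OHT replicate 1 for Keap1 (0.037) and Gclc (0.33), and without OHT replicate 3 for Gclm (0.62) and Txnrd1 (0.057). The log2 ratio of cultures over sham turned for Keap1 without the 20 highest genes in the total (-0.020), for Srxn1 over OHT in place of sham (-0.10) and for Gpx3 without sham replicate 3 (0.83). For Nqo1 it ran from 5.16 to 8.06. On leaving out 1 library the lowest and highest log2 differences were -1.11 and 0.037 for Keap1, -0.53 and 0.33 for Gclc, -1.71 and 0.62 for Gclm, -0.54 and 0.057 for Txnrd1, and -0.075 and 0.47 for Gpx4, and the culture ratio for Gpx3 ran from -0.90 to 0.83. The causes were not tested. The median of all genes was 0.01 with quantile normalization and -0.00 with DESeq2, against -0.12. Where counts are low, as for Nqo1 in OHT, depth limits the precision.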
